A study of Homo sapiens with 4 samples.

Results

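The collagen genes were taken as every row of the deposited count tables whose symbol is COL, a type number, A and a chain number, which gave 44 of the 36601 genes in the tables. Each gene codes for 1 alpha chain. The genes were described per deposited cell class, per treatment and per day in nuclei of enteric ganglioids, free-floating 3D clusters of enteric neurons and their progenitors grown from H9, an established human embryonic stem cell line. Single nucleus RNA-seq was available for 4 samples, 2 control and 2 PP121, each treatment with a differentiation replicate 1 and a differentiation replicate 2. PP121, a kinase inhibitor, was added to the medium at 2 µM from day 15 to day 20, and the controls did not receive it. All 4 samples passed through the same enteric neural crest induction and were then kept in medium with GDNF and ascorbic acid, the latter being a cofactor of the enzymes that hydroxylate collagen. The deposited annotation dates both replicate 1 samples to day 42 and both replicate 2 samples to day 38, so that the day and the differentiation replicate cannot be told apart. Whether these dates are the days of collection is not known here. All cells came from 1 line, and the study describes its nuclei as coming from a pool of several ganglioids.

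Only nuclei with a class in the deposited annotation were used: 2912 to 4587 per sample, with 23348045 to 34123759 UMIs in all and a median of 6289 to 7071 UMIs per nucleus. Between 0 and 8 cell barcodes were shared by any 2 samples. The sample names written in the annotation of both controls disagreed with their labels, and the labels were followed. The annotation has 6 classes, of which Enteric Neuron held 976 to 2301 nuclei per sample, Progenitor 1 501 to 1197 and Progenitor 2 683 to 1155. The Mesenchymal class held 40 and 33 nuclei on day 42 (control and PP121) and 408 and 422 on day 38. Its 8 markers other than collagens, among them PRRX1 and PDGFRB, were all detected and summed to between 2133 and 3025 CPM (counts scaled to a total of 1000000 UMIs per class and sample), whereas in the other classes the same sum was at most 487 CPM. The class labelled Epithelial held 9 to 37 nuclei, so its values rest on little material. Its markers CDH1 and EPCAM had UMIs in all 4 samples, but the keratin marker KRT19 was at 0 in 3 of 4 samples and does not bear out the label. The 3 markers summed there to 59.8 and 30.9 CPM on day 42 and 50.8 and 50.2 CPM on day 38 (control and PP121). Their sum was at most 16.4 CPM in enteric neurons and progenitors, and 14.1 to 103.7 CPM in the mesenchymal class. The class named Unknown held 60 to 211 nuclei.

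Collagens are proteins of the extracellular matrix in which 3 alpha chains wind into a triple helix. Fibrillar types form the cables of connective tissue, type IV forms the sheet of the basement membrane, and type VI forms beaded filaments. FACIT collagens sit on the surface of fibrils, and the transmembrane types span the cell membrane with the collagen domain outside. In the gut wall the enteric ganglia are free of fibrillar collagen inside and are wrapped by a basement membrane and by collagen made by surrounding mesenchymal cells. Of the 44 genes, 11 were fibrillar, 6 of the basement membrane, 6 of beaded filaments, 4 anchoring or short-chain, 10 FACIT, 4 transmembrane, and 3 multiplexin or other.

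Collagen RNA was densest in the mesenchymal class. In the order control day 42, PP121 day 42, control day 38 and PP121 day 38, which is kept below, all 44 genes summed to 6334, 6204, 5680 and 6072 CPM there. In enteric neurons the sum was 359, 351, 411 and 463 CPM, in progenitor 1 it was 474, 456, 561 and 743 CPM, and in progenitor 2 it was 764, 916, 910 and 1113 CPM. Thus the mesenchymal sums lay far above those of the neurons and progenitors in every sample, and progenitor 2 lay above progenitor 1, and progenitor 1 above the neurons, within each sample. The unknown class held 1818, 1882, 1465 and 2769 CPM, and the epithelial class 1385, 1207, 1487 and 1663 CPM. Since mesenchymal nuclei were rare on day 42, they gave 10.7% and 8.49% of all collagen UMIs on day 42, from 0.934% and 0.719% of the nuclei. On day 38 they gave 61.6% and 54.5% of collagen UMIs from 13.5% and 14.5% of the nuclei. Without regard to depth, a collagen UMI was found in 82.6%, 81.8%, 87.0% and 90.5% of enteric neuron nuclei. It was found in 94.2%, 94.7%, 96.2% and 98.0% of progenitor 2 nuclei and in all mesenchymal and all epithelial nuclei.

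**Figure D1:**
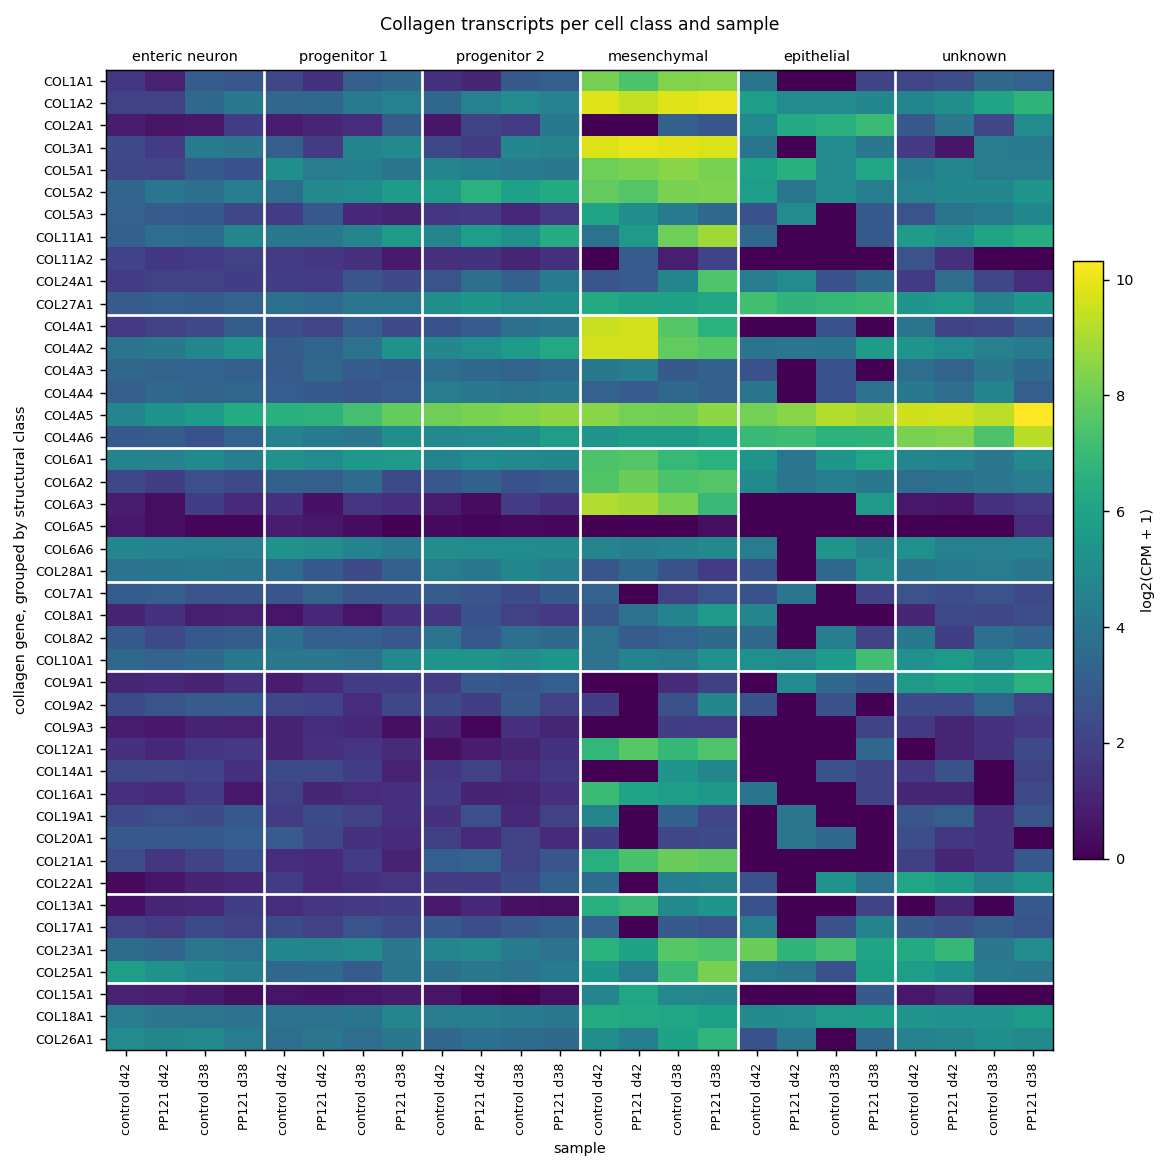
Level of each of the 44 collagen genes (rows, grouped by structural class with white lines) in each deposited cell class and sample (columns), as log2(CPM + 1) of summed UMIs. Levels are meant for comparison along a row. Whether gene length affects the counts between rows was not tested, and whether introns were counted is not known here. The mesenchymal columns are the brightest for COL1A1, COL1A2, COL3A1, COL6A3 and COL12A1, and the unknown columns for COL4A5, COL4A6 and COL9A1.

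By mean CPM over the 4 samples, 26 of the 44 genes were highest in the mesenchymal class, and for 16 of these every mesenchymal sample lay above every sample of the next class. The epithelial and unknown classes were highest for 5 genes each, progenitor 2 for 4, and enteric neurons and progenitor 1 for 2 each. These are descriptions without a test, because the classes come from clusters of the same nuclei and 5 collagens (COL1A1, COL1A2, COL3A1, COL5A2 and COL11A1) were among the genes the study used to name the mesenchymal class. After scaling the class sums by TMM (trimmed mean of M values), the highest class was the same for 41 of 44 genes, the exceptions being COL7A1, COL6A5 and COL23A1.

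Among the fibrillar genes, 8 of 11 were highest in the mesenchymal class. COL3A1, the chain of type III fibrils, stood at 874, 992, 934 and 861 CPM (mean 915 ± 60.3 SD, n = 4), against a mean of 15.9 CPM in progenitor 1, the next class. COL1A2, a chain of type I, stood at 894, 663, 915 and 981 CPM (863 ± 139 SD, n = 4), against 57.0 CPM in the unknown class. COL1A1, the partner of COL1A2 in type I, stood at 291, 175, 328 and 346 CPM, against 6.79 CPM in the unknown class. These type I and III chains thus had no overlap between mesenchymal and other samples. COL5A2, a chain of type V that controls fibril width, was also highest in the mesenchymal class at 227, 188, 301 and 316 CPM, but progenitor 2 held 48.4, 95.2, 58.7 and 77.8 CPM. COL11A1, a chain of type XI of cartilage and early fibrils, differed widely within the mesenchymal class (14.0, 47.1, 263 and 467 CPM) and overlapped with progenitor 2 (24.8, 52.2, 35.3 and 83.9 CPM). COL2A1, the chain of cartilage fibrils, and COL27A1 were highest in the epithelial class, with means of 82.3 and 126 CPM. COL11A2 was low in all classes, with a highest class mean of 2.76 CPM in enteric neurons.

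The basement membrane genes showed 2 patterns. COL4A1 and COL4A2, the chains of the type IV network found in nearly all tissues, were highest in the mesenchymal class: COL4A1 stood at 706, 777, 194 and 95.9 CPM and COL4A2 at 779, 787, 230 and 194 CPM. Both were higher in the day 42 samples than in the day 38 samples. COL4A5 and COL4A6, chains of the networks of kidney, skin and smooth muscle basement membranes, were highest in the unknown class: COL4A5 stood at 764, 789, 636 and 1280 CPM, above the epithelial mean of 421 CPM, and COL4A6 at a mean of 354 ± 186 CPM (SD, n = 4), above 115 CPM. COL4A5 was also found in neurons and progenitors, at 25.5, 38.2, 49.1 and 80.1 CPM in enteric neurons, 93.0, 101, 154 and 233 CPM in progenitor 1, and 269, 299, 329 and 387 CPM in progenitor 2. The 3 classes kept this order in every sample, with progenitor 2 highest. COL4A3 and COL4A4 were low in all classes, with highest means of 13.0 CPM (mesenchymal) and 16.8 CPM (progenitor 2).

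The 6 type IV genes lie in 3 head-to-head pairs on opposite strands, and the promoters of the COL4A1 and COL4A2 pair and the COL4A5 and COL4A6 pair are shown because each pair had its highest level in the same class. In RefSeq on GRCh38.p14, COL4A1 (minus strand) and COL4A2 (plus strand) start 127 bases apart on chromosome 13, so that the COL4A2 window holds both starts, and COL4A6 and COL4A5 start 380 bases apart on chromosome X. The COL11A1 window is shown as that of the gene with the smallest adjusted p for PP121 given below. Each window runs from 250 bases before to 50 bases after the start, 5′ to 3′ on the gene's strand, and capitals mark the CCAAT box (CCAAT) and the GC box (GGGCGG) on either strand. COL4A2 is at chr13:110307034-110307333 (plus), COL4A5 at chrX:108439588-108439887 (plus), COL4A6 at chrX:108439409-108439708 (minus) and COL11A1 at chr1:103108473-103108772 (minus).
COL4A2: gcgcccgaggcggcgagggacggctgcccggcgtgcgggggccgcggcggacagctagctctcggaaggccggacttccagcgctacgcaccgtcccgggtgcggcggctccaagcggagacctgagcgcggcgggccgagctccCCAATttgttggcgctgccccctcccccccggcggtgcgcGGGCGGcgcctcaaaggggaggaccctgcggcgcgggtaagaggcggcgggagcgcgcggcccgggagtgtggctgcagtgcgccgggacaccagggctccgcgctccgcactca
COL4A5: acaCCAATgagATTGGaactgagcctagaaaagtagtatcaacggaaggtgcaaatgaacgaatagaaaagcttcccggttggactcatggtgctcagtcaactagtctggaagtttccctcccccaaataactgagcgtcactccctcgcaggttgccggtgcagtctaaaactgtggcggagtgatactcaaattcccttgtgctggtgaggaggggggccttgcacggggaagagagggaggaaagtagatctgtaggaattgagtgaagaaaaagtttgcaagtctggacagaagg
COL4A6: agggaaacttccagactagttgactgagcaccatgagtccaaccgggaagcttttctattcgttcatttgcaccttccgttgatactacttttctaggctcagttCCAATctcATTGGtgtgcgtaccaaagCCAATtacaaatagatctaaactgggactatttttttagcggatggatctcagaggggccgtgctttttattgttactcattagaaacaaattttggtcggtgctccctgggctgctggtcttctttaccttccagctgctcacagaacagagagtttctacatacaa
COL11A1: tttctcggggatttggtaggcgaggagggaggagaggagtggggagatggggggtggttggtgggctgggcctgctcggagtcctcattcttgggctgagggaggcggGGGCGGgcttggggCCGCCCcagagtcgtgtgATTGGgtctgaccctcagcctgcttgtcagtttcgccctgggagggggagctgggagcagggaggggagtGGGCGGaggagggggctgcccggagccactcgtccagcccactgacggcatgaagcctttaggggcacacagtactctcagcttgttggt
The COL4A2 window holds both motifs, the COL4A5 and COL4A6 windows only CCAAT boxes, 2 of which lie in the stretch that they share, and the COL11A1 window both. Over the 44 windows found for 32 of the 44 genes, 14 held a CCAAT box, against 34.6% of 35116 RefSeq promoter windows, and 24 held a GC box, against 45.0%. Another motif, TATAAA, was in 8 of 44 windows and in 11.5% of all.

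Reads of overlapping genes may be mixed, because no source used here says whether introns or strand were used in counting. In the GENCODE annotation on GRCh38, 25 of the 44 genes overlap another gene, 20 of them one on the opposite strand, and 6 a protein-coding gene. COL4A1 and COL4A2 overlap each other by 1422 bases, and COL10A1 lies wholly inside NT5DC1 on the opposite strand, so its values are uncertain.

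Of the beaded filament genes, COL6A1, COL6A2 and COL6A3, the 3 chains of the common type VI, were highest in the mesenchymal class. COL6A3 stood at 541, 488, 299 and 127 CPM there and at most at 2.71 CPM in enteric neurons. COL6A1, by contrast, was also seen in the neurons (23.8, 23.2, 29.8 and 20.1 CPM) and in progenitor 1 (36.6, 30.3, 43.9 and 45.6 CPM). COL6A6 was found at like levels in several classes, with 26.4, 23.1, 21.9 and 21.7 CPM in enteric neurons, 37.1, 33.0, 24.1 and 17.7 CPM in progenitor 1 and a highest mean of 31.2 CPM in progenitor 2. COL6A5 had only 34 UMIs over all classes and samples. Among the FACIT genes, 6 of 10 were highest in the mesenchymal class, led by COL12A1 (112, 198, 117 and 179 CPM, against a next mean of 2.51 CPM) and COL21A1 (mean 182 CPM against 6.13 CPM). COL9A1, a chain of cartilage type IX, was highest in the unknown class at 46.6, 60.8, 50.5 and 95.3 CPM. Of the short-chain genes, COL10A1 stood at 39.4, 40.1, 33.5 and 42.3 CPM in progenitor 2, with the limit given above.

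COL25A1, a transmembrane collagen known from neurons and from the contact of motor nerves with muscle, stood at 52.6, 38.1, 27.5 and 20.4 CPM in enteric neurons, and its values in progenitor 1 lay between 6.77 and 14.8 CPM. COL26A1 stood at 30.4, 25.8, 28.4 and 20.0 CPM in enteric neurons, above the 11.8 to 16.7 CPM of progenitor 1. Both were higher in all 4 neuron samples than in any progenitor sample. The mesenchymal class nevertheless had higher means for both, of 122 and 56.4 CPM, owing to its day 38 samples.

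PP121 was compared with control in each class on UMIs summed per sample, with edgeR's quasi-likelihood test, TMM scaling and Benjamini-Hochberg adjustment over all genes that passed a filter on low counts, called at an adjusted p under 0.05. Without regard to the day, no gene of any kind was called (0% of those tested in enteric neurons, progenitor 1, progenitor 2, the mesenchymal class and all annotated nuclei), and so 0 of 43, 31, 39, 37 and 43 collagens. At an unadjusted p under 0.05 there were 2, 0, 6, 3 and 2 collagens. DESeq2 called 1 collagen in progenitor 2 and 0 in the others, and edgeR's bias-adjusted form of the test called 0 in each.

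Since both samples of a day deviated together, the comparison was also made with the replicate as a block, that is, within days, a fit that leaves 1 residual degree of freedom per gene and borrows its spread from all genes. In enteric neurons 5 of 43 collagens were then called, against 14.8% of all 21243 genes tested, so the collagens were not called more often than other genes. COL4A5 rose from 25.5 to 38.2 CPM on day 42 and from 49.1 to 80.1 CPM on day 38 (log2 fold change 0.68 ± 0.11 SE, edgeR adjusted p = 0.000127). COL11A1 rose from 8.23 to 12.1 CPM and from 11.6 to 25.7 CPM (0.89 ± 0.17, edgeR adjusted p = 0.000809). COL5A2 rose from 9.34 to 15.7 CPM and from 12.7 to 19.6 CPM (0.73 ± 0.16, edgeR adjusted p = 0.00268). For COL11A1 and COL5A2 both PP121 samples lay above both control samples, whereas the COL4A5 groups overlapped because of the day. COL4A2 rose less, from 14.4 to 17.0 CPM and from 25.6 to 39.4 CPM (0.48 ± 0.14, edgeR adjusted p = 0.0209). COL25A1 fell from 52.6 to 38.1 CPM and from 27.5 to 20.4 CPM (-0.41 ± 0.12, edgeR adjusted p = 0.0235), the reverse of the 4 genes that rose. With 1 sample left out and no block, treatment and day are not balanced. Without PP121 replicate 2 the log2 fold change was then -0.21 for COL4A2 and 0.050 for COL4A5. Without control replicate 1 that of COL25A1 was 0.10. Such fits mix PP121 with the day, so they cannot show whether a difference rests on 1 sample. Within days each of these 3 genes had the same direction in both pairs. With the block, DESeq2 called only COL4A5 of the 5, and only COL11A1 was called when each nucleus was given the class whose mean profile it correlated with best. By that measure 326 and 208 control nuclei of the neuron class were nearest to progenitor 1, while 1929 and 992 stayed with the neurons (day 42 and day 38), against 56 and 23 PP121 nuclei nearest to progenitor 1, and the part of this in the neuron values was not tested. In the same fit PRRX1 and TWIST1, 2 of the 8 non-collagen mesenchymal markers, also rose in enteric neurons (log2 fold changes of 1.65 and 1.91), while the summed level of the 8 was 125, 130, 140 and 146 CPM. Their part in the collagen values was not tested.

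In progenitor 2, 5 of 39 collagens were called within days, against 6.71% of 18885 genes, and all 5 rose. COL11A1 had the smallest adjusted p of all collagens and classes and rose from 24.8 to 52.2 CPM on day 42 and from 35.3 to 83.9 CPM on day 38 (1.19 ± 0.14, edgeR adjusted p = 3.97e-09). COL2A1 rose from 0.559 to 3.28 CPM and from 2.59 to 16.8 CPM (2.66 ± 0.38, edgeR adjusted p = 4.14e-07), within-day ratios of 5.86 and 6.50. COL24A1, a minor fibrillar chain known from developing bone and cornea, rose from 5.26 to 13.1 CPM and from 7.96 to 17.6 CPM (1.26 ± 0.25, edgeR adjusted p = 0.000203). COL2A1 and COL24A1 thus had low levels in the controls, whereas COL5A2 (0.73 ± 0.14) and COL4A2 (0.55 ± 0.14) were already above 20 CPM. Without PP121 replicate 2 and with no block the log2 fold change of COL4A2 here was -0.042. Of the 5 genes, 4 are fibrillar, out of 11 fibrillar genes tested. Over the 39 collagens tested, 28 had a positive log2 fold change with a median of 0.22, while the median of all genes was 0.00. Of the 8 mesenchymal markers 7 were tested here, of which 0 rose and LAMA4 fell. The median UMI counts of the class were 6706, 6242, 6664 and 6544 per nucleus.

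In progenitor 1, 2 of 31 collagens were called within days, against 3.69% of all genes. COL5A2 rose from 12.4 to 28.3 CPM and from 31.4 to 49.9 CPM (0.89 ± 0.24, edgeR adjusted p = 0.00896), and its lowest log2 fold change with 1 sample left out and no block was 0.22. COL4A2 rose from 7.33 to 9.11 CPM and from 13.5 to 38.1 CPM (0.96 ± 0.29, edgeR adjusted p = 0.032), and its within-day ratios of 1.24 and 2.81 were uneven. Without PP121 replicate 2 and with no block its log2 fold change was -0.32. In the mesenchymal class 1 of 37 was called, against 0.452% of all genes. This was COL24A1, at 5.61 and 6.73 CPM on day 42 and at 24.9 and 177 CPM on day 38 (2.66 ± 0.46, edgeR adjusted p = 0.000129). The day 42 values rest on 2 UMIs in each sample, and the rise was seen in the day 38 pair, with 90 and 613 UMIs in 45 of 408 and 137 of 422 nuclei. With the bias-adjusted form of the test this call was lost. Summed over all annotated nuclei, 3 of 43 collagens were called (0.883% of all genes), namely COL11A1, COL2A1 and COL24A1, all higher with PP121. Their within-day ratios on day 42 and day 38 were 1.52 and 2.00, 1.96 and 3.54, and 1.71 and 4.26, in that order. The day 38 ratio, which holds PP121 replicate 2, was the larger for each. Without that sample and with no block, the treatments are not balanced over days. The log2 fold changes were then -0.64 for COL11A1, 0.075 for COL2A1 and 0.043 for COL24A1.

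**Figure D2:**
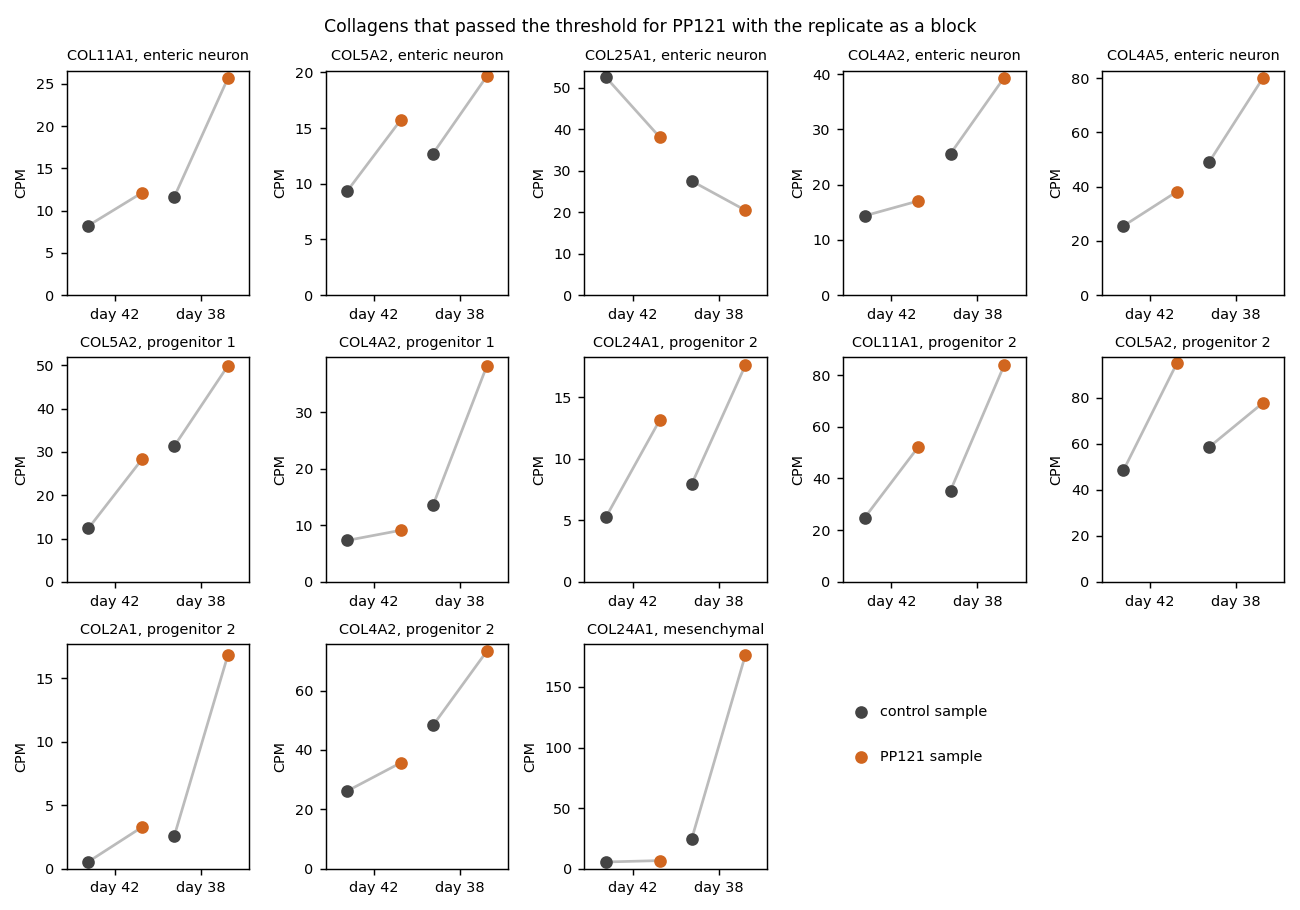
Level in CPM (linear axis from 0) of each collagen called for PP121 within days, in 1 panel per gene and class; points are samples (grey control, orange PP121) and lines join the 2 samples of a day. The PP121 sample is the higher of its pair in every panel except COL25A1, and for COL24A1 in the mesenchymal class the day 42 pair lies near 6 CPM.

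Whether the PP121 difference itself differed between classes was tested with a class-by-treatment term. Of 42 collagens tested, 0 were called for progenitor 1 against enteric neurons or for progenitor 2 against enteric neurons, in a fit without the block (0% and 0% of 20664 genes) and with it (1.05% and 0.59%). At an unadjusted p under 0.05 there were 3 and 3 collagens without the block and 5 and 6 with it, and DESeq2 called 0. For COL24A1 the difference between progenitor 2 and enteric neurons was 1.12 ± 0.35 log2 units (edgeR adjusted p = 0.229, with the block). COL5A2 and COL4A2 were called in the neurons and both progenitor classes, and for no collagen was the PP121 difference shown to differ between these classes.

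The share of nuclei with a UMI was compared after thinning each nucleus to 2000 UMIs. COL4A5 was found in 3.58% (95% Clopper-Pearson interval 2.86 to 4.42), 4.69%, 6.58% and 9.65% of enteric neuron nuclei and in 40.1%, 41.9%, 41.4% and 47.5% of progenitor 2 nuclei. Before thinning the shares in neurons were 12.1%, 14.98%, 19.3% and 27.9%. An exact two-sided permutation test of PP121 against control over the 4 samples gave p = 0.667 for the neurons, and with 2 against 2 samples p cannot go below 0.333. Intervals of this kind cover counting error only. COL3A1 was found in 0.960%, 0.148%, 5.05% and 4.11% of the thinned neuron nuclei, at 7210 to 8102 median UMIs. Droplet data can carry free RNA, and the part of free RNA in these shares was not tested.

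With both treatment and day in the fit, more collagens were called for the day than for PP121 in each class. With only 1 of these terms in the fit, both counts were 0 in the neurons and both progenitor classes. The fit for day 38 against day 42 had treatment as a second term, each day holding 1 control and 1 PP121 sample. In enteric neurons 11 of 43 collagens were called, against 9.49% of all genes, and 10 of the 11 were higher on day 38. The largest differences were in type I and III chains, COL3A1 at 4.12, 2.55, 17.9 and 16.2 CPM (2.42 ± 0.21, edgeR adjusted p = 3.85e-09), COL1A2 at 3.11, 2.97, 9.92 and 16.8 CPM (2.14 ± 0.23) and COL1A1 at 2.16, 0.95, 7.12 and 5.94 CPM (2.14 ± 0.30). In each of these both day 38 samples lay above both day 42 samples. COL4A2 stood at 14.4, 17.0, 25.6 and 39.4 CPM (1.08 ± 0.14), COL4A1 at 2.32, 2.97, 3.79 and 7.20 CPM (1.07 ± 0.28) and COL4A5 rose by a log2 fold change of 1.07 ± 0.11. COL6A3 was near 0 throughout, at 0.791, 0.297, 2.71 and 1.37 CPM (1.96 ± 0.45), as was COL13A1, at 0.422, 1.07, 1.26 and 2.74 CPM (1.49 ± 0.44). COL11A1 (0.87 ± 0.17) and COL23A1, at 11.5, 9.45, 15.6 and 13.7 CPM (0.55 ± 0.17), rose least. COL25A1 fell (-0.86 ± 0.12, edgeR adjusted p = 2.16e-05). With no treatment term 0 of 43 collagens and 0% of all genes were called in the neurons, 12 collagens having an unadjusted p under 0.05.

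In progenitor 1, 8 of 31 collagens were called for the day, against 14.6% of all genes, and in progenitor 2, 12 of 39, against 4.81%. With no treatment term both counts were 0 (0% and 0% of all genes), with 12 and 10 collagens at an unadjusted p under 0.05. COL3A1 again had the largest difference in progenitor 1, at 7.83, 2.42, 24.1 and 29.2 CPM (2.68 ± 0.31), and in progenitor 2, at 3.69, 2.65, 26.8 and 23.8 CPM (3.05 ± 0.25, edgeR adjusted p = 2.72e-15). COL1A1 rose in both (2.00 ± 0.44 and 2.33 ± 0.39), as did COL1A2 (1.18 ± 0.29 and 0.86 ± 0.21), COL11A1 (1.29 ± 0.25 and 0.66 ± 0.14), COL4A2 (1.73 ± 0.29 and 1.02 ± 0.14) and COL4A5 (1.13 ± 0.17 and 0.39 ± 0.11). Without PP121 replicate 2 (and with no treatment term) the COL11A1 difference in progenitor 2 was -0.079. COL5A2 rose in progenitor 1 (1.20 ± 0.24). COL2A1 (2.36 ± 0.37), COL6A3 (2.14 ± 0.64), COL4A1 (1.30 ± 0.25), COL22A1 (1.24 ± 0.37) and COL4A6 (0.58 ± 0.15) rose in progenitor 2. COL20A1 fell in progenitor 1 (-1.58 ± 0.58) and COL23A1 fell in progenitor 2 (-0.66 ± 0.19). By structural class, 4, 5 and 5 fibrillar genes and 3, 2 and 4 basement membrane genes rose in the neurons, progenitor 1 and progenitor 2, and none of either kind fell.

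The higher day 38 levels of type I and III chains in neurons and progenitors went with the share of mesenchymal nuclei. COL1A1, COL1A2 and COL3A1 summed to 9.39, 6.48, 35.0 and 38.9 CPM in enteric neurons, which was 0.456%, 0.354%, 1.61% and 1.78% of the mesenchymal level of the same sample. In progenitor 1 the sum was 1.02%, 0.770%, 2.29% and 2.81% of the mesenchymal level, and in progenitor 2 0.749%, 1.39%, 2.94% and 2.48%. Other genes highest in the mesenchymal class were mixed. In enteric neurons COL6A3 was likewise higher on day 38 (0.146%, 0.0609%, 0.905% and 1.08%). COL12A1 (1.55%, 0.658%, 1.84% and 1.27%) and COL21A1 (5.00%, 1.30%, 1.34% and 2.24%) overlapped between days there. In progenitor 2 COL6A3 and COL12A1 were higher on day 38, and COL21A1 was lower (8.23%, 5.13%, 1.19% and 2.55%). In nuclei without a class, with a median of 666 to 822.5 UMIs, COL1A2 and COL3A1 summed to 29.9, 17.0, 113 and 287 CPM. Of the non-collagen mesenchymal markers, 2 of 8 rose on day 38 in the neurons (PRRX1, 2.46 ± 0.43, and TWIST1, 2.52 ± 0.55). In progenitor 1 it was 1 of 7 and in progenitor 2 it was 2 of 7, and the remaining markers were not called. The shares of all genes called in these 3 fits were 9.49%, 14.6% and 4.81%, so the count in progenitor 1 was near that share. PRRX1 stood at 0.317, 0.772, 1.35 and 4.68 CPM in the neurons. The part of mesenchymal RNA in the neuron and progenitor values was not tested.

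**Figure D3:**
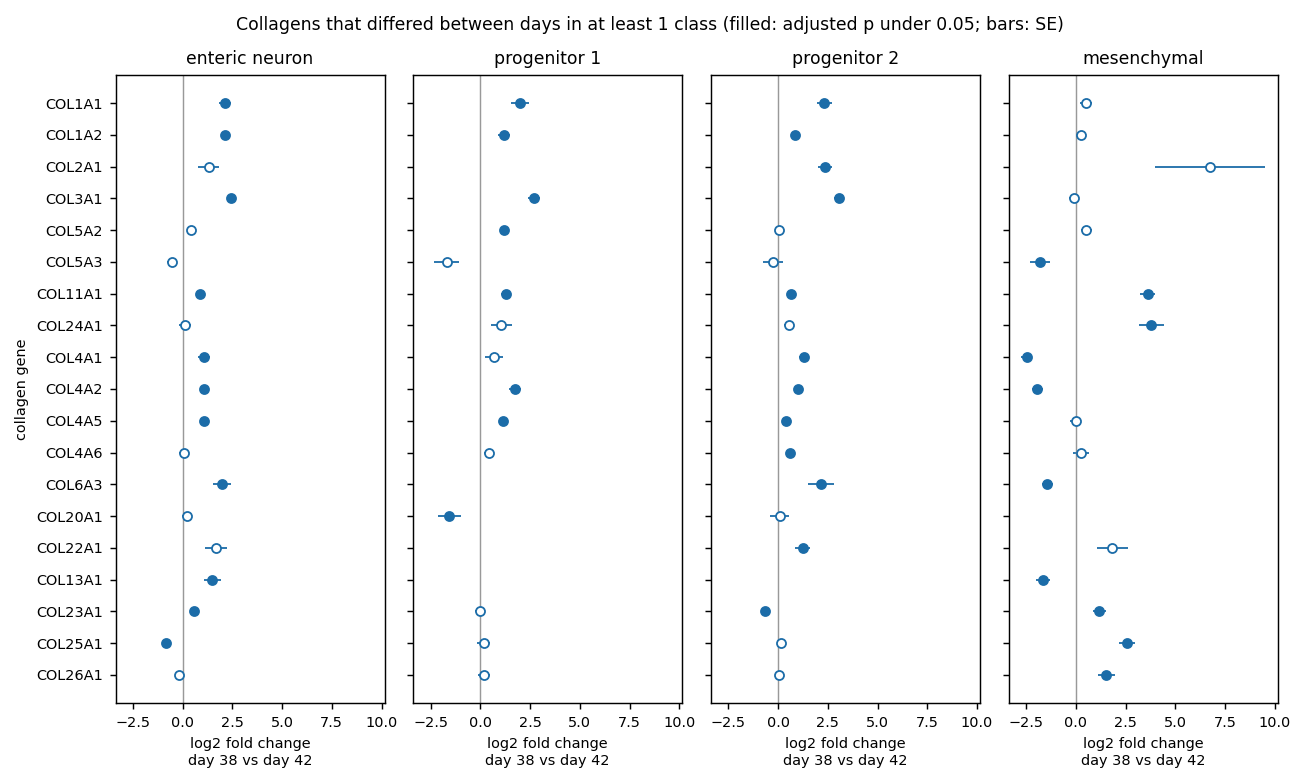
Log2 fold change of day 38 against day 42 (x axis) with its SE (bars) for the collagens called in at least 1 class, in 4 panels for the classes; filled points have an adjusted p under 0.05, and COL14A1 is left out because it had 0 UMIs on day 42 in the mesenchymal class. COL1A1, COL1A2 and COL3A1 are filled and positive in the neurons and both progenitor classes and open in the mesenchymal class, where COL4A1, COL4A2 and COL6A3 are negative.

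Within the mesenchymal class 11 of 37 collagens were called for the day, against 4.39% of all genes, and these went both ways, 6 up and 5 down. COL11A1 was higher on day 38, at 14.0, 47.1, 263 and 467 CPM (3.62 ± 0.37, edgeR adjusted p = 4.89e-13), as were COL24A1 (3.79 ± 0.62) and COL25A1, at 42.04, 20.2, 129 and 297 CPM (2.56 ± 0.39, edgeR adjusted p = 5.28e-07). COL26A1 (1.54 ± 0.44) and COL23A1 (1.19 ± 0.33) were higher as well. COL14A1, a FACIT of tendon and skin, had 0 UMIs in both day 42 samples and 146 and 90 UMIs on day 38, at least 7.26-fold higher than a floor of 3 counts over the day 42 group. In the other direction, COL4A1 (-2.48 ± 0.29, edgeR adjusted p = 5.16e-11) and COL4A2 (-1.93 ± 0.27) were lower on day 38, and COL6A3 (-1.43 ± 0.28), COL5A3 (-1.80 ± 0.48) and COL13A1 (-1.65 ± 0.36) were lower too. For all of these the 2 samples of 1 day lay above both samples of the other. Of the 5 collagens that the study used to name the class, COL11A1 was called, and COL1A1, COL1A2, COL3A1 and COL5A2 had log2 differences between -0.10 and 0.53 and were not called. COL1A1, COL1A2 and COL5A2 nevertheless had both day 38 samples above both day 42 samples. With no treatment term 6 collagens were called (1.93% of all genes), and with the bias-adjusted form of the test 0, with 17 at an unadjusted p under 0.05. The day 42 values rest on 40 and 33 nuclei.

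**Figure D4:**
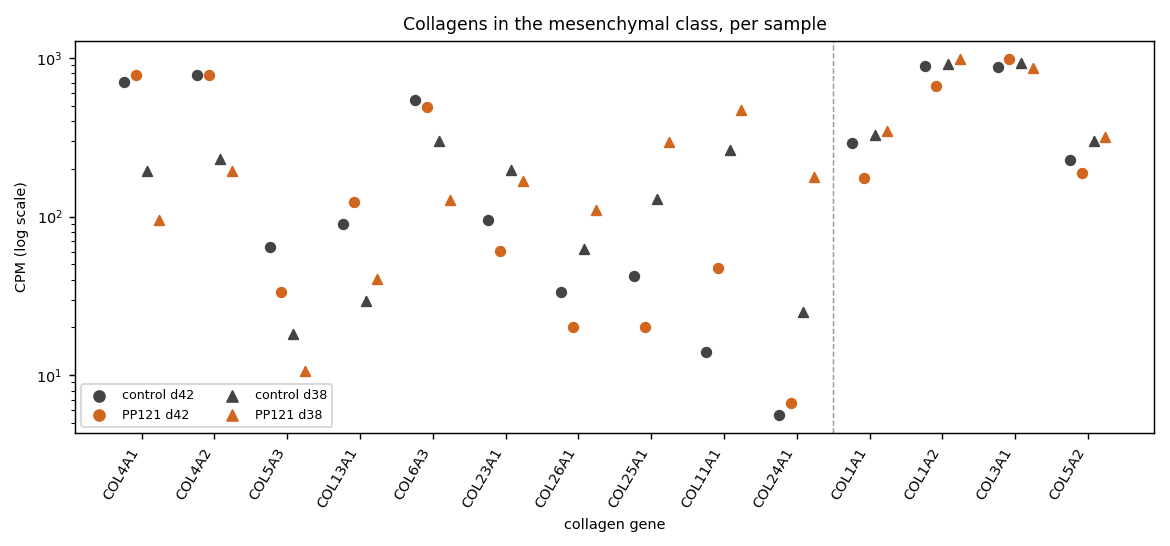
Level in CPM (log axis) of collagens in the mesenchymal class, 1 point per sample (circles day 42, triangles day 38; grey control, orange PP121); genes called for the day stand left of the dashed line, without COL14A1, and 4 annotation genes of the class that were not called stand right of it. Triangles lie below the circles for COL4A1, COL4A2, COL5A3, COL13A1 and COL6A3 and above them for the other called genes. Right of the line they lie above the circles for COL1A1, COL1A2 and COL5A2 and among them for COL3A1.

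Of the 8 non-collagen markers of the class, 1 was called as higher on day 38 and 2 as lower. In the same fit 4.39% of all genes were called. PDGFRA was higher (3.29 ± 0.48), and PDGFRB (-1.64 ± 0.28) and EDNRA (-1.15 ± 0.27) were lower. PRRX1, FN1, RUNX2, LAMA4 and TWIST1 were not called. Smooth muscle markers summed to 25.2, 87.5, 92.3 and 67.1 CPM and endothelial markers to 11.2, 3.36, 4.97 and 4.32 CPM in the class. Epithelial markers summed to 103.7, 37.0, 27.4 and 14.1 CPM, higher in both day 42 samples, as COL4A1 and COL4A2 were, and their part in those values was not tested. Whether the mesenchymal nuclei of the days are the same kind of cell was not tested.

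The day differences of the mesenchymal class and of other classes were set against each other with a day-by-class term. Against enteric neurons 13 of 43 collagens were called (3.11% of all genes), 5 with a higher and 8 with a lower mesenchymal difference. Against progenitor 2 it was 11 of 43 (2.94%). COL4A1 differed by -3.49 ± 0.33 and -3.77 ± 0.32 log2 units and COL4A2 by -2.94 ± 0.28 and -2.91 ± 0.28, since both fell in the mesenchymal class and rose in the others. COL25A1 differed by 3.49 ± 0.38 against the neurons (edgeR adjusted p = 2.17e-17), rising on day 38 in the one and falling in the other. With the bias-adjusted form of the test 0 collagens were called in either comparison, with 16 and 15 at an unadjusted p under 0.05.

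Between mesenchymal nuclei of day 38, Spearman correlations of CPM per nucleus are given as a description, since the nuclei of a sample share a library and differ in depth. COL1A2 and COL3A1 had rho = 0.55 in control (408 nuclei) and 0.64 with PP121 (422 nuclei), COL1A1 and COL3A1 had 0.36 and 0.52, and COL4A1 and COL4A2 had 0.36 and 0.35. COL6A3 and COL24A1 had -0.04 and -0.32. The type I and III chains and the type IV pair thus had positive values in both samples, but pairs of unlike type did so too. COL1A2 and COL11A1 had 0.35 and 0.36, and COL4A1 and COL6A3 had 0.26 and 0.33.

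Over all annotated nuclei 23 of 43 collagens were called for the day, against 5.52% of all genes, all 23 higher on day 38, with COL1A1 (3.87 ± 0.23), COL3A1 (3.69 ± 0.13) and COL1A2 (3.35 ± 0.13) at the top. With no treatment term 10 of 43 were called (0.721% of all genes). In such sums more cells of a type and more RNA per cell cannot be told apart, and here the share of mesenchymal nuclei moved with the day.

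The genes that make, release and bind collagens were described from lists of 20 modification and folding genes, 17 secretion, processing and cross-linking genes and 11 receptors. For PP121 0 of the genes in these lists were called without the block in any class, as were 0% of all genes. Within days, 3 modification genes rose and 2 fell in enteric neurons, where 2 secretion genes and 1 receptor fell as well, of 20, 16 and 10 tested. These counts are near the 14.8% of all genes called in that fit. PLOD2, which hydroxylates lysines at the ends of collagen chains, stood at 17.8, 27.5, 35.9 and 81.7 CPM there (0.96 ± 0.13, edgeR adjusted p = 1.05e-05), and PLOD1 (1.01 ± 0.21) and P4HA1, a subunit of prolyl 4-hydroxylase (0.46 ± 0.09), rose as well. PLOD2 rose also in progenitor 1 (0.82 ± 0.18) and progenitor 2 (1.04 ± 0.14), and P4HA1 in both (0.75 ± 0.14 and 0.38 ± 0.11). ADAMTS3, which trims the N-terminal propeptide of procollagen, rose in progenitor 2 (0.99 ± 0.26). In the mesenchymal class 0 of the listed genes were called for PP121 with the block, against the 0.452% of all genes given above, with ADGRG6 (-1.54 ± 0.55) and FKBP10 (-0.64 ± 0.31) at the smallest p.

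By day, PLOD2 was higher on day 38 in the neurons (1.37 ± 0.13), progenitor 1 (1.84 ± 0.18) and progenitor 2 (1.12 ± 0.14), as was P4HA1 (0.48 ± 0.09, 0.86 ± 0.14 and 0.55 ± 0.11). P4HA2 rose in the neurons (0.65 ± 0.17), and GP6, a collagen receptor of platelets, fell in progenitor 1 (-0.83 ± 0.19) and progenitor 2 (-0.57 ± 0.17). In the mesenchymal class TLL1, a protease that trims the C-terminal propeptide, had 1 UMI on day 42 and 1590 on day 38, a CPM ratio of 147 with a counting interval of 26.3 to 5796. P3H2, a prolyl 3-hydroxylase known to act on type IV collagen, had 0 and 220 UMIs, at least 6.76-fold more over a floor of 3 counts. ITGA11, an integrin that binds fibrillar collagen, fell there (-1.47 ± 0.30). In that class 1 of 20 modification and 1 of 16 secretion genes rose, and 1 of 20 modification genes and 1 of 10 receptors fell, against 4.39% of all genes called in either direction.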

How the data were processed

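Nuclei of 4 samples (2 control, 2 PP121) were profiled with the 10x 3′ chemistry. The authors deposited raw UMI counts per gene and nucleus with an annotation of class, treatment and day; the submitters' processing notes name Cell Ranger, GRCh38 and Seurat 4.0.4, while the methods of the study name kallisto/bustools, so the counting of these tables was not settled. How doublets were treated is not given in the sources used here, and nuclei with over 2 times the median UMIs of their class were left out as an alternative. Nuclei marked as filtered were dropped. The percent of mitochondrial counts per nucleus that the authors deposited beside the annotation was used only to decide which nuclei to put back in an alternative.

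UMIs were summed per class and sample. Depth was 23348045 to 34123759 UMIs per sample. CPM are counts scaled to a total of 1000000 UMIs per class and sample. Tests used edgeR 4.0.16 (quasi-likelihood, TMM, filterByExpr, Benjamini-Hochberg over all genes tested, 0.05, R 4.3.3), tested on simulated data, with DESeq2 1.42.0 as an alternative. Python 3.11.15, numpy 2.4.6, pandas 2.3.3, scipy 1.17.1 and matplotlib 3.10.9 were used otherwise. The p-values rest on the spread between these 4 samples, moderated over all genes. With the replicate block, and for the day with treatment as a term, 1 residual degree of freedom per gene is left. Each treatment held 1 sample per day, so no p-value measures the spread between replicates of a day. Both replicate 1 samples are dated to day 42 and both replicate 2 samples to day 38, so that the numbers pair the samples; deviations of same-numbered samples had correlations of 0.421 in enteric neurons, 0.435 in progenitor 1, 0.275 in progenitor 2, 0.276 in the mesenchymal class and 0.532 in all nuclei. Collagens are named where called for PP121 or day, among the 5 highest of a class, or used by the study to name a class, and up to 3 other genes of the pathway by smallest p per fit. The members and gene lists were chosen with earlier results of these data known. Promoter windows are from RefSeq (GRCh38.p14), gene positions from GENCODE v29.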

Additional observations from a re-analysis of the deposited data

Results flagged for a closer look

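The day 38 against day 42 difference of 5 collagens had opposite signs in the mesenchymal class and in enteric neurons, and the difference between the classes passed the edgeR test of a day-by-class term, which was added after seeing the data. The mesenchymal minus neuron difference was -3.15 log2 units for COL6A3 (edgeR adjusted p = 1.33e-09), 3.49 for COL25A1 (edgeR adjusted p = 2.17e-17), -3.06 for COL13A1 (edgeR adjusted p = 0.000139), -3.49 for COL4A1 and -2.94 for COL4A2. With the bias-adjusted form of the same edgeR test 0 of 43 collagens were called, here and against progenitor 2, which ends each of these calls, with 16 and 15 at an unadjusted p under 0.05.

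Against progenitor 2 the same held for 4 collagens. The mesenchymal minus progenitor 2 difference was -3.42 log2 units for COL6A3 (edgeR adjusted p = 7.61e-08), 1.87 for COL23A1 (edgeR adjusted p = 1.62e-05), -3.77 for COL4A1 and -2.91 for COL4A2. The mesenchymal day 42 values rest on 40 and 33 nuclei. In enteric neurons COL4A1 and COL4A2 together stood at 1.12% and 1.28% of the mesenchymal level on day 42 and at 6.94% and 16.1% on day 38 (control and PP121). In progenitor 2 they stood at 2.11% and 2.73%, then 14.4% and 30.9%. The part of mesenchymal RNA in these values was not tested.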

How the results depend on the processing

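Counts of collagens called in this section stand without the share of all genes called under the same setting. They show how the calls depend on the processing, and a change in a count is not a result about collagens. For PP121 the number of collagens called was 0 in each class without the block. With the replicate block, which follows the pairing by day, it was 5 in enteric neurons, 2 in progenitor 1, 5 in progenitor 2, 1 in the mesenchymal class and 3 over all nuclei, and it changed no call of the class-by-PP121 terms. With the bias-adjusted test and the block it was 6, 2 and 6 in the neurons and progenitors and 3 over all nuclei. DESeq2 called 1 in progenitor 2 without the block, and with it 1 in the neurons, 1 in progenitor 2 and 4 over all nuclei. With no filter on low counts 5 were called in progenitor 2 and 1 in the mesenchymal class. With classes by correlation and the block the counts were 1, 1, 6 and 1, in the order neurons, progenitor 1, progenitor 2 and mesenchymal. With at most 1 UMI per gene and nucleus and the block, 4 were called in the neurons, 5 in progenitor 2, 5 in the mesenchymal class and 8 over all nuclei. With nuclei put back and the block the counts were 5, 1, 5 and 1, and with deep nuclei left out and the block 5, 1, 5 and 1, with 4 over all nuclei. Leaving out 1 sample gave 0 to 7 in the neurons, 0 to 3 in progenitor 1, 0 to 6 in progenitor 2 and 0 to 1 in the mesenchymal class, with a lone sample assumed to vary like the others.

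For the day, the counts without a treatment term were 0, 0, 0 and 6, and 10 over all nuclei. DESeq2 gave 5, 2, 2 and 6. A minimum of 10 counts gave 4 in progenitor 2 and 6 in the mesenchymal class, classes by correlation 17 in progenitor 1, at most 1 UMI per gene and nucleus 3 in the mesenchymal class, and the bias-adjusted test 0 there. Leaving out 1 sample, with no treatment term, gave 1 to 5, 0 to 7, 0 to 1 and 6 to 13, and 9 to 26 over all nuclei. For the day-by-class term against neurons it gave 7 to 11, and the bias-adjusted test gave 0 against the neurons and 0 against progenitor 2.

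Leaving out 1 sample, with no block and no treatment term, turned the sign of 6 log2 fold changes: COL25A1 for PP121 in neurons (-0.90 to 0.10), COL4A2 for PP121 in neurons (-0.21 to 1.06), progenitor 1 (-0.32 to 1.91) and progenitor 2 (-0.042 to 1.12), COL11A1 for PP121 over all nuclei (-0.64 to 2.20) and COL11A1 for the day in progenitor 2 (-0.079 to 1.34). In these fits treatment and day are not balanced. Within days each of the PP121 differences named here had the same direction in both pairs. The part of the imbalance in the turned signs was not tested. The log2 fold changes under all alternatives were counted for collagens called in the main fit or in that with the block changed. For PP121, where the main fit called none, 184 stayed uncalled and 102 were called. For the day, with the day-by-class terms counted in, 673 stayed called and 310 were no longer called. The 32 values of the collagen share of counts moved by less than the spread between samples. Depth limits the mesenchymal day 42 values, which rest on 40 and 33 nuclei.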

Other observations

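Nuclei without a class in the annotation numbered 4248, 2400, 1816 and 2030, in the order control day 42, PP121 day 42, control day 38 and PP121 day 38, with medians of 666, 822.5, 807 and 708.5 UMIs. The 44 collagens summed to 501, 598, 723 and 1329 CPM in them.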
